A study of Homo sapiens with 6 samples.

Results

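The genes described here are the transcription factor gene BACH1, the NRF2 gene NFE2L2, the NRF2 inhibitor gene KEAP1 and antioxidant genes of the NRF2 pathway. BACH1 is known to repress several of these antioxidant genes. The genes were chosen by name as the probe sets that the array's annotation pairs with any of 9 listed symbols. Of the 9 genes, 5 were paired with a probe set, 1 each, among 14884 genes named in all. These were NFE2L2, KEAP1, HMOX1, TXNRD1 and SRXN1. BACH1, NQO1, GCLM and GCLC were paired with none by symbol or by gene identifier and were not analysed here. BRIP1, a helicase gene that shares BACH1 as an older symbol, is a different gene and was not counted.

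HCT116, an established cell line from a human colorectal carcinoma, was profiled on whole-transcript arrays. A first group of 3 arrays came from cells carrying a stably transduced empty vector (control), and a second group of 3 from cells stably transduced to overexpress miR-196b (labelled miR-196b arrays). Some labels write HTC116 for the line and miR1966OE for the second group. The replicates are labelled as biological, with no word on whether they share a transduction or a clone, so the p-values reflect only the spread among these samples, which may be technical.

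NRF2 binds antioxidant response elements together with a small MAF protein and switches on genes for glutathione, thioredoxin and heme handling. BACH1 binds overlapping elements with the same partners and represses part of these genes until heme or oxidants displace it. KEAP1 holds NRF2 in the cytosol and hands it to a CUL3 ubiquitin ligase for breakdown. BACH1 has been reported as a target of the miR-196 family. Much of the control of BACH1 and NRF2 acts on the proteins, which an RNA array does not read.

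The mature sequences are shown because the label names miR-196b while the family's probe set that differed between the groups is that of MIR196A2, which encodes miR-196a. Capitals mark the seed, bases 2 to 8 from the 5′ end, and both lines are RefSeq sequences on GRCh38.p14, at chr7:27169528-27169549 (minus strand) and, for the MIR196A2 copy, chr12:53991762-53991783 (plus strand).
hsa-miR-196b-5p: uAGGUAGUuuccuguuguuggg
hsa-miR-196a-5p: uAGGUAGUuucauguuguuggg
The 2 microRNAs share the seed AGGUAGU and differ at 1 of 22 positions, C12A, counted from the 5′ end of miR-196b-5p. The probe set of MIR196B was at 8.09, 7.91 and 7.91 in control and at 8.21, 7.93 and 8.01 in the labelled arrays (log2), with overlapping groups. That of MIR196A2 was at 3.09, 3.21 and 2.88 in control and at 10.6, 10.5 and 10.8 in the labelled arrays, a log2 difference of 7.55 (limma adjusted p = 4.53e-07). These probe sets read precursors, not mature microRNAs, and the directions below are those of the arrays as labelled.

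Promoter stretches are shown for TXNRD1 and KEAP1 because they are the 2 measured members whose RefSeq promoter windows (250 bases before to 50 after a start site, GRCh38.p14) held the core of an antioxidant response element. The core searched was TGACNNNGC, read as GCNNNGTCA on the other strand. It was found in 13.3% of all 35116 windows of the same length. Capitals mark the core.
TXNRD1, chr12:104215660-104215708, plus strand: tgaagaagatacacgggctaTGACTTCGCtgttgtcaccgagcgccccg
TXNRD1, chr12:104286910-104286958, plus strand: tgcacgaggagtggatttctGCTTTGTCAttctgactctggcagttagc
KEAP1, chr19:10502774-10502822, minus strand: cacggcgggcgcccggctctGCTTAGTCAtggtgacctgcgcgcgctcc
The first TXNRD1 core begins 99 bases before 1 of the gene's start sites and the second 102 bases before the other. The KEAP1 core begins 31 bases before a start site. In these windows a further core lay in KEAP1 at 54 bases and in TXNRD1 at 8 bases before a start site. The core was in 1 of 2 windows of KEAP1 and in 2 of 2 windows of TXNRD1. The windows of NFE2L2 (2) and SRXN1 (1) did not hold these letters, and HMOX1 had no window to search. Of the members without a probe set, GCLM held the core in its 1 window, and BACH1 (3), NQO1 (1) and GCLC (1) did not. A further core, TGANTCAGC, was found in 1.36% of all windows and in 0 windows of the members. A match describes letters only, and no binding was measured here.

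In these arrays 0 of the 5 members passed the test (limma, Benjamini-Hochberg adjusted p below 0.05 over 16098 named probe sets), where 0.0559% of all named probe sets passed. At an unadjusted p below 0.05, 0 of 5 members passed, beside 9.87% of all named probe sets. The estimates for the 3 measured targets were below zero, at -0.17 for TXNRD1, -0.15 for HMOX1 and -0.09 for SRXN1 (log2, labelled miR-196b minus control). Those for the regulators were 0.06 for NFE2L2 and 0.0096 for KEAP1. The median of the 5 members was -0.09, beside 0.0069 over all named probe sets. RNA from a culture of many cells cannot tell fewer expressing cells from less RNA per cell.

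On the second principal component, labelled replicates 1 and 3 lay apart from the other 4 arrays, and each member is therefore also given without them. Of 8 epithelial marker genes, 7 were measured, 6 of them above the dimmest 40% of probe sets. EPCAM, an epithelial adhesion molecule, had group means of 11.02 (control) and 10.90 (labelled arrays), KRT18, a keratin, of 11.29 and 11.06, and KRT19, another keratin, of 10.09 and 10.09 (log2). Of the 7, 5 had estimates below zero and 2 above it (KRT19 and VIL1), from -0.26 for CDX2 to 0.06 for VIL1, with CDX1 at -0.0087. The log2 of the summed linear epithelial levels was 12.51 to 12.54 over the control arrays and 12.36 to 12.41 over the labelled arrays. This sum is made up mostly of the brightest probe sets, KRT18, EPCAM and KRT19, and does not describe each marker. In the test 0 of the 7 genes passed. Of 7 fibroblast and 6 blood cell markers, 3 and 3 were measured, with summed levels of 5.22 to 5.49 and 7.78 to 7.93 in control and 5.14 to 5.41 and 7.39 to 7.95 in the labelled arrays. Of these 6, only THY1 and CD68 lay above the dimmest 40%. What part the epithelial sum has in the values below was not tested.

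**Figure D1:**
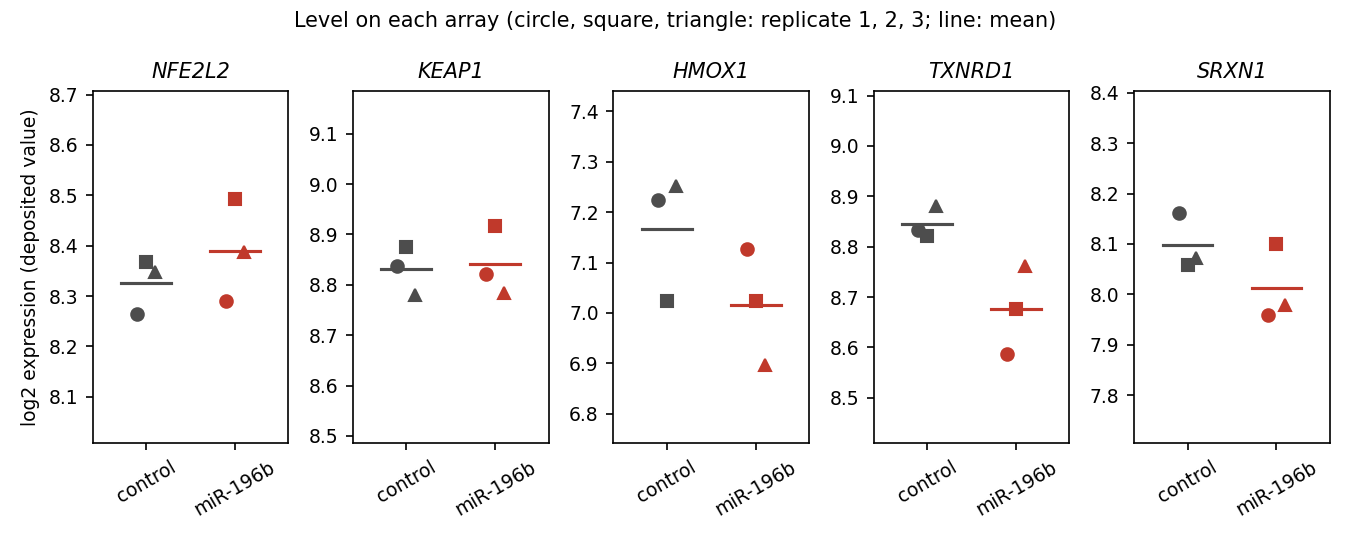
Deposited log2 level of the 5 measured members on each of the 6 arrays, by group; symbols mark the replicate number and lines the group means, and each panel has its own axis spanning the same range. The 3 labelled arrays lie below the 3 control arrays for TXNRD1 (8.59 to 8.76 against 8.82 to 8.88), and the groups overlap for the other 4 genes.

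NFE2L2 encodes NRF2, the activator of the pathway (probe set 16905475). Its log2 level was 8.26, 8.37 and 8.35 on the control arrays and 8.29, 8.49 and 8.39 on the labelled arrays. The groups overlapped, with labelled replicate 2 the highest of the 6 arrays and control replicate 1 the lowest. The means were 8.33 ± 0.0552 and 8.39 ± 0.101 (SD, n = 3 each), and differed by 0.06 in log2 (SE 0.08), with a 95% interval from -0.13 to 0.26 (limma adjusted p = 0.821). In linear terms the interval runs from 0.915 to 1.19 times the control level. Without labelled replicate 1 the difference was 0.11 and without replicate 3 it was 0.07, while without labelled replicate 2 it was 0.01.

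KEAP1 encodes the adaptor that marks NRF2 for breakdown (probe set 16868743). It lay at 8.84, 8.88 and 8.78 in control and at 8.82, 8.92 and 8.78 in the labelled arrays (log2). The 2 groups covered nearly the same range. The means were 8.83 ± 0.0478 and 8.84 ± 0.0686 (SD, n = 3 each). They differed by 0.0096 in log2 (SE 0.07), with a 95% interval from -0.17 to 0.18 (limma adjusted p = 0.976), or 0.892 to 1.14 times the control level. Of all named probe sets, 94.6% had a larger absolute difference. Without labelled replicate 1 the difference was 0.019 and without labelled replicate 3 it was 0.038. The sign of the difference changed without control replicate 3 (-0.016), without labelled replicate 2 (-0.028) and with a repeated quantile normalization (-0.015).

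HMOX1 encodes heme oxygenase 1, which breaks heme down to biliverdin, iron and carbon monoxide and is the best known gene under BACH1 repression (probe set 16929562). Its log2 level was 7.23, 7.02 and 7.25 in control and 7.13, 7.02 and 6.90 in the labelled arrays. Control replicate 2 was as low as labelled replicate 2 and lower than labelled replicate 1, so the groups overlapped. The means were 7.17 ± 0.124 and 7.02 ± 0.115 (SD, n = 3 each), and differed by -0.15 in log2 (SE 0.10), with a 95% interval from -0.38 to 0.08 (limma adjusted p = 0.639). In linear terms that is 0.768 to 1.06 times the control level. The estimate was -0.21 without labelled replicate 1 and -0.09 without labelled replicate 3. HMOX1 varied most among the members, with a within-group SD of 0.1198, against 0.0591 for KEAP1 and a median of 0.128 over all named probe sets.

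TXNRD1 encodes cytosolic thioredoxin reductase, which uses NADPH to keep thioredoxin reduced (probe set 16756163). It lay at 8.83, 8.82 and 8.88 in control and at 8.59, 8.68 and 8.76 in the labelled arrays (log2). All 3 labelled arrays were below all 3 control arrays, with a gap of 0.06 between the groups. Among the measured members, 1 of 5 had groups that did not overlap, as had 17.2% of all named probe sets. With the labelled arrays lower, as here, the share was 7.18% of all named probe sets. The means were 8.84 ± 0.0312 and 8.68 ± 0.0875 (SD, n = 3 each), and differed by -0.17 in log2 (SE 0.08), which is 1.12-fold lower. The 95% interval from -0.35 to 0.01 included zero (limma unadjusted p = 0.0612, adjusted p = 0.513, exact two-sided permutation p = 0.1, the smallest possible for 3 against 3 arrays). Of all named probe sets, 25.8% had a larger absolute difference. The estimate was -0.13 without labelled replicate 1 and -0.21 without labelled replicate 3.

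SRXN1 encodes sulfiredoxin, which repairs overoxidised peroxiredoxins (probe set 16916352). Its log2 level was 8.16, 8.06 and 8.07 in control and 7.96, 8.10 and 7.98 in the labelled arrays. Labelled replicate 2 lay within the control range and the other 2 labelled arrays below it. The means were 8.10 ± 0.0567 and 8.01 ± 0.0762 (SD, n = 3 each), and differed by -0.09 in log2 (SE 0.08), with a 95% interval from -0.27 to 0.10 (limma adjusted p = 0.739). This is 0.832 to 1.07 times the control level. The estimate was -0.06 without labelled replicate 1, -0.07 without labelled replicate 3, -0.05 without control replicate 1 and -0.13 without labelled replicate 2.

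Over the 5 members the exact two-sided permutation p was 0.1 for TXNRD1, 0.3 for HMOX1 and SRXN1, 0.4 for NFE2L2 and 0.9 for KEAP1, or 0.5 and above after adjustment over the 5. The interval of each member lay between 0.768 and 1.19 times its control level.

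**Figure D2:**
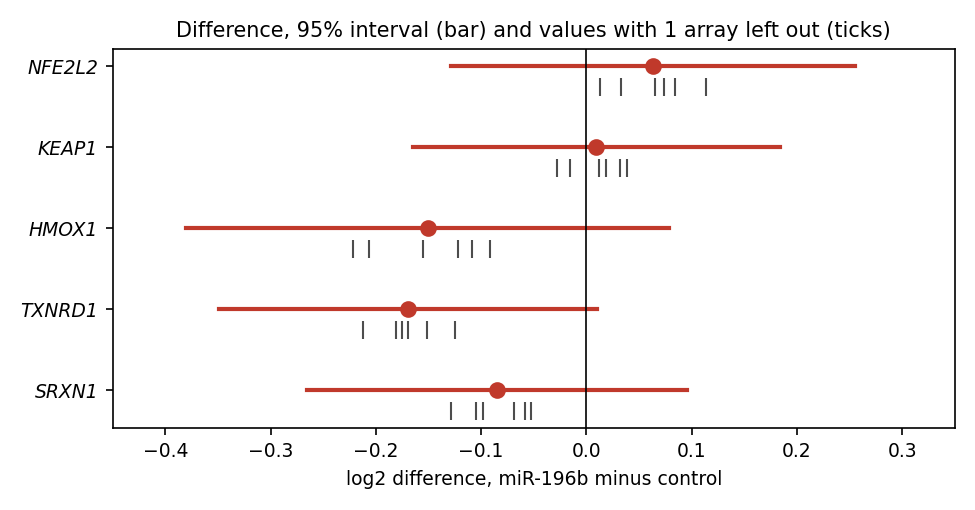
Log2 difference (labelled miR-196b minus control) of the 5 measured members with 95% limma intervals as bars and, as ticks, the values with each of the 6 arrays left out in turn. Every interval includes zero, and the ticks stay below zero for HMOX1, TXNRD1 and SRXN1 and fall on both sides of it for KEAP1.

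Differences between probe sets within an array show whether 2 genes shifted unequally, whatever the overall scale of the array. Their height has no meaning, since probe sets differ in sensitivity. These 6 pairs were chosen after the values were seen. How often other pairs of probe sets separate was not computed, so separation here is a description only. TXNRD1 minus NFE2L2 was 0.57, 0.45 and 0.53 in control and 0.30, 0.18 and 0.38 in the labelled arrays, a shift of -0.23 with separated groups. SRXN1 minus NFE2L2 shifted by -0.15, from -0.10, -0.31 and -0.28 to -0.33, -0.39 and -0.41, also without overlap. Its size rested in part on control replicate 1, without which it was -0.085. HMOX1 minus NFE2L2 shifted by -0.21 with overlapping groups, and KEAP1 minus NFE2L2 by -0.05 (-0.020 without control replicate 1). The exact permutation p was 0.1 for the first 2, 0.2 for HMOX1 and 0.4 for KEAP1, or 0.2, 0.3 and 0.48 adjusted over the 6 pairs. At 3 arrays a group these pairs could not pass a threshold of 0.05. The estimates of the 3 measured targets were below zero and that of NFE2L2 above it. The negative sign of their shifts relative to NFE2L2 was therefore fixed in advance and adds no support to the single-gene values. The 3 measured targets were also averaged on each array, relative to the control mean of each gene. Control arrays stood at 0.04, -0.07 and 0.03 and labelled arrays at -0.15, -0.10 and -0.16. Since all 3 estimates were below zero, the lower mean of this average was fixed in advance. No average of other genes was set beside it, and a shared shift of the targets was not tested.

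**Figure D3:**
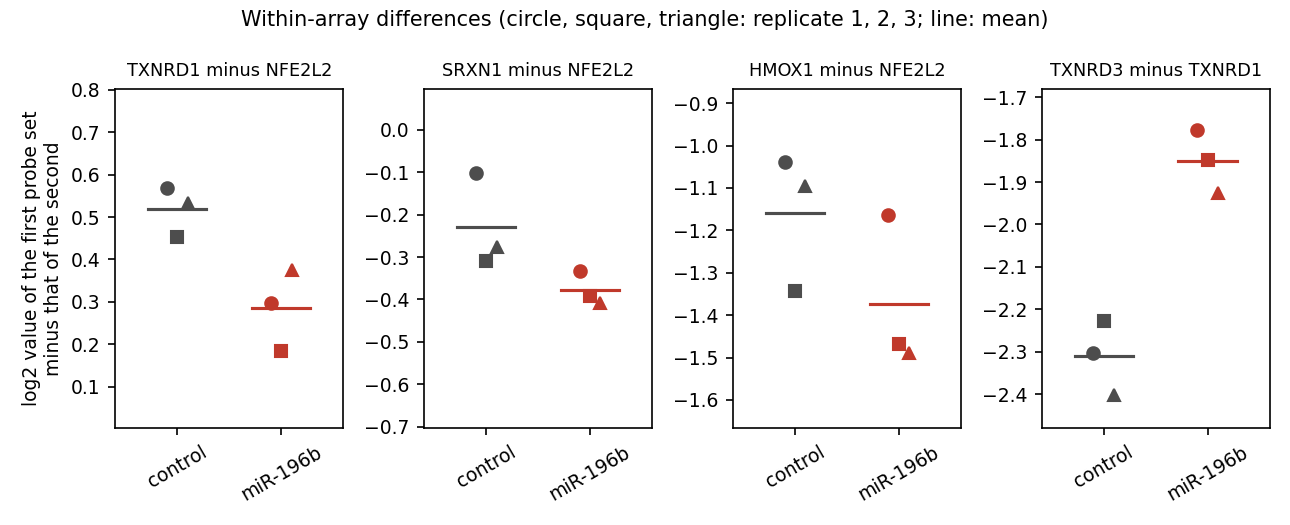
Within-array log2 differences between 2 probe sets on each of the 6 arrays, by group, with symbols for the replicate number, lines for the group means and the same axis span in each panel. The groups are apart for TXNRD1 and SRXN1 relative to NFE2L2 (shifts of -0.23 and -0.15), and overlap for HMOX1 relative to NFE2L2. They are also apart for TXNRD3 relative to TXNRD1 (0.46), which single-gene separation in opposite directions had fixed. The negative sign of the shifts relative to NFE2L2 was fixed by the single-gene estimates. The pairs were chosen after the values were seen, and the share of other pairs that separate was not computed.

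The other genes of the pathway were read from 8 lists, each gene by its brightest probe set. Of 150 listed genes, 88 were measured, and 52 were higher and 36 lower in the labelled arrays, where 52.0% of all named probe sets were higher. Their median log2 difference was 0.02, and 0 of 88 passed the limma test. At an unadjusted p below 0.05, 10 of 88 passed (11.4%), 8 higher and 2 lower, beside the 9.87% of all named probe sets given above. Of all named probe sets at that threshold, 923 were higher and 666 lower. The groups did not overlap for 14 of 88 (15.9%, beside 17.2%).

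Among 12 measured partners of NRF2 and BACH1, 9 were higher and 3 lower, with a median of 0.07 and 0 past the test. CUL3, the ubiquitin ligase scaffold that works with KEAP1, was at 9.05, 9.17 and 9.07 in control and at 9.24, 9.34 and 9.22 in the labelled arrays (log2). The groups did not overlap, and the log2 difference was 0.17 (limma adjusted p = 0.507). GSK3B, a kinase that marks NRF2 for a separate breakdown route, had 0.14 (0.22 without labelled replicate 3). MAFG, a small MAF partner, had 0.10 (0.04 to 0.16 with single arrays left out), and FBXO22, a ubiquitin ligase subunit reported to act on BACH1, had -0.07 (-0.05 without labelled replicate 1), each with overlapping groups. A second, dimmer probe set of FBXO22 had 0.05.

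Of 21 measured glutathione genes, 14 were higher and 7 lower, with a median of 0.02 and 0 past the test. MGST2, a membrane-bound glutathione transferase family enzyme, had a log2 difference of 0.27 (limma adjusted p = 0.455), and GLRX, a glutaredoxin that removes glutathione from proteins, had 0.22 (limma adjusted p = 0.493). Both had groups that did not overlap, and GLRX was at 0.14 without labelled replicate 3. The glutathione transferases GSTM3 (-0.24), one of the dimmest 40% of probe sets, and GSTO1 (0.17, or 0.11 without control replicate 2) had overlapping groups.

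Thioredoxin and peroxiredoxin genes numbered 17, 11 higher and 6 lower, with a median of 0.02 and 0 past the test. SESN3, a sestrin that links oxidative stress to growth control, was at 4.28, 4.67 and 4.77 in control and at 5.28, 5.25 and 5.17 in the labelled arrays (log2). All 3 labelled arrays lay above control, and the difference of 0.66 (SE 0.13, 1.58-fold) was the largest in the 8 lists, yet it did not pass (limma unadjusted p = 0.0014, adjusted p = 0.294). MSRA, which repairs oxidised methionine, had 0.26 (limma adjusted p = 0.460) with separated groups.

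The 3 thioredoxin reductase genes had estimates of both signs. TXNRD3, the form best known from testis, was at 6.53, 6.59 and 6.48 in control and at 6.81, 6.83 and 6.84 in the labelled arrays (log2). The difference was 0.29, SE 0.07 (limma adjusted p = 0.347). TXNRD2, the mitochondrial form, was at 6.17, 6.22 and 6.01 in control and at 5.99, 5.93 and 5.91 in the labelled arrays, a difference of -0.19 (limma adjusted p = 0.504). Within arrays, TXNRD3 minus TXNRD1 shifted by 0.46 with separated groups (exact permutation p = 0.1, adjusted over the 6 pairs 0.2). On all 3 labelled arrays TXNRD3 lay above control and TXNRD1 below it. Separation of this pair was therefore fixed in advance and adds no support to the single-gene values. TXNRD2 minus TXNRD1 shifted by -0.02 with overlapping groups.

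Of 11 measured heme and iron genes, 6 were higher and 5 lower, with a median of 0.06 and 0 past the test. CPOX, coproporphyrinogen oxidase of heme synthesis, was at 10.24, 10.23 and 10.23 in control and at 10.57, 10.58 and 10.54 in the labelled arrays (log2). The spread within each group was small (SD 0.0034 and 0.0174), and the difference of 0.33 (SE 0.07, 1.25-fold) did not pass (limma adjusted p = 0.295). It passed with a trended, robust variance prior (limma adjusted p = 0.0034, with a range over all alternatives of 0.0034 to 0.574). HMOX2, the constitutive heme oxygenase, was at 7.08, 7.27 and 7.26 in control and at 6.97, 6.93 and 6.99 in the labelled arrays. Its groups did not overlap, and the difference was -0.24 (limma adjusted p = 0.437). BLVRA, which turns biliverdin into bilirubin, had -0.11, and ALAD, an early heme synthesis enzyme, had 0.15, both with overlapping groups. With single arrays left out BLVRA ranged from -0.16 to -0.07 (the latter without labelled replicate 2), and ALAD from 0.06 without control replicate 2 to 0.27 without control replicate 3.

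Of 7 measured NADPH supply genes, 3 were higher and 4 lower, with a median of -0.0087, 0 past the test and groups overlapping in all 7. NNT, the mitochondrial transhydrogenase, had -0.34 from a probe set among the dimmest 40%, and -0.18 without labelled replicate 3. The pentose phosphate enzymes TKT and TALDO1 had 0.12 (0.18 without labelled replicate 1) and -0.05 (-0.0027 without control replicate 1), and NAMPT, of NAD synthesis, had 0.04 at its brightest probe set and -0.07 and -0.13 at its other 2.

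For detoxification and export, 6 of 28 listed genes were measured, 3 higher and 3 lower, and 0 passed. PTGR1, an NADPH-dependent reductase, had 0.20 with separated groups (limma adjusted p = 0.494). The carbonyl reductases CBR3 (0.14) and CBR1 (-0.11) and the lipolysis inhibitor G0S2 (-0.07) had overlapping groups. For superoxide and peroxide handling, 5 of 9 were measured, 2 higher and 3 lower, and 0 passed. CAT, catalase, was at 9.10, 8.93 and 9.05 in control and at 9.29, 9.25 and 9.36 in the labelled arrays (log2), with separated groups and a difference of 0.28 (limma adjusted p = 0.390). The oxidase genes NOX1 (0.10) and DUOX2 (-0.13) and the maturation factor DUOXA2 (-0.13) were among the dimmest 40% of probe sets, and their sizes rested on single arrays. With 1 array left out NOX1 ranged from 0.02 (without labelled replicate 2) to 0.23 (without labelled replicate 1), and DUOXA2 from -0.22 (without labelled replicate 3) to -0.07 (without labelled replicate 1). DUOX2 was at -0.00054 without labelled replicate 1 and at -0.29 without control replicate 3.

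A last list held genes reported to be raised by BACH1 in tumour cells, which would stand opposite to the repressed targets. Of 14, 9 were measured, 4 higher and 5 lower, with a median of -0.04 and 0 past the test. HK2, a hexokinase that starts glycolysis, was at 7.96, 8.02 and 8.10 in control and at 7.81, 7.88 and 7.81 in the labelled arrays (log2). The groups did not overlap, and the difference was -0.20 (limma adjusted p = 0.471). SNAI2, a repressor of epithelial genes (0.32), the chromatin protein HMGA2 (0.24, or 0.16 without control replicate 2) and the chemokine receptor CXCR4 (-0.13, or -0.06 without labelled replicate 1) had overlapping groups. HMGA2 is itself a reported miR-196 and let-7 target. VIM had 0.17 at its brightest probe set and 0.28 and 0.56 at its dimmer ones (limma adjusted p = 0.824, 0.507 and 0.401).

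**Figure D4:**
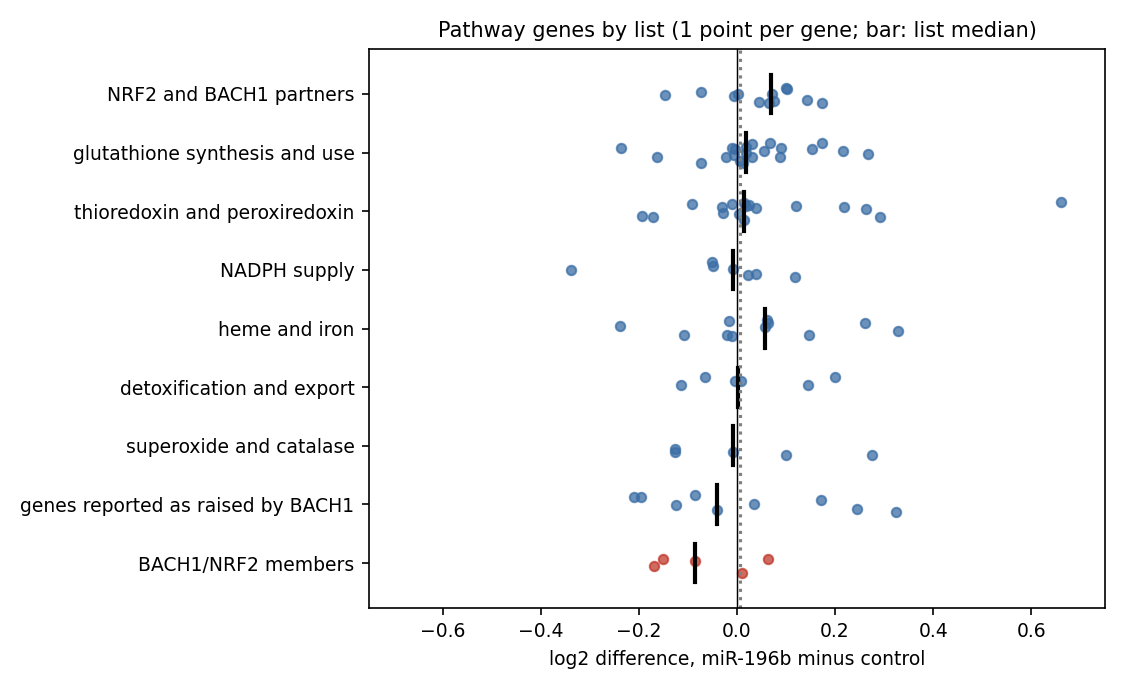
Log2 difference (labelled miR-196b minus control) of each measured gene in the 8 pathway lists (blue) and of the 5 members (red), with list medians as black bars and the median of all named probe sets (0.0069) as a dotted line. Medians run from -0.04 to 0.07 in the 8 lists and stand at -0.09 for the members; SESN3 at 0.66 lies farthest out.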

How the data were processed

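The authors deposited 1 log2 value per probe set and array, made with RMA and Partek 6.6, per the submitters' processing notes, which give no options. RMA normally includes quantile normalization, which would reduce overall differences between arrays, and returns values in base 2. The median over all deposited probe sets was 4.37 on control replicate 1 and 4.34 on each of the other arrays. Precision is limited by the number of arrays. The genome build is not given in the sources used here, so gene coordinates are not printed, and printed sequences are RefSeq's on GRCh38.p14. Of 53617 probe sets, 16098 had 1 gene symbol, 0 had several and 37519 had none here.

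The 16098 named probe sets were fitted without a filter in limma 3.58.1 (R 4.3.3; lmFit, eBayes, 4 residual and 3.23 prior degrees of freedom), with Benjamini-Hochberg adjustment over all of them at 0.05. The script was tested on simulated data. Members and lists were chosen with earlier results of these data known. From each list the text names up to 4 genes with the smallest p, with all 9 members, MIR196B and MIR196A2. TXNIP and VIM are named as well, for their further probe sets. A rule to name the genes most like BACH1 could not be applied without a BACH1 probe set. Seed matches in the BACH1 transcript were not examined.

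Alternatives were a filter on dim probe sets, another variance prior, median centring, repeated quantile normalization, a replicate block, all probe sets, averaged probe sets per gene, and each array left out. Within-array differences were added after the data were seen.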

Additional observations from a re-analysis of the deposited data

How the results depend on the processing

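With each of the 13 alternatives, 0 of 5 members passed (limma adjusted p of 0.289 to 0.996 over all members and alternatives), and HMOX1, TXNRD1, SRXN1 and NFE2L2 kept their sign. KEAP1 was at -0.015 with a repeated quantile normalization and ranged from -0.028 to 0.038 with single arrays left out. Of the 88 other pathway genes 0 passed, except 1 (CPOX) with a trended, robust variance prior; that setting also called 91 probe sets in all, against 9. With the replicate number as a block, TXNRD1 stayed at -0.17 (limma adjusted p = 0.548), and 0 members and 1 probe set in all passed. The labels do not say whether same-numbered arrays are paired. Correlations between their deviations from the group means, over all named probe sets, were 0.03, 0.04 and 0.0085. These values cannot settle whether the arrays are paired. NAMPT was at -0.053 as the mean of its probe sets and -0.036 to 0.093 with single arrays left out, where CBR3 ranged from -0.011 to 0.32, CBR1 from -0.28 to 0.015, G0S2 from -0.11 to 0.018 and the shift of TXNRD2 minus TXNRD1 from -0.10 to 0.038. The causes were not tested. With 1 array left out, TXNRD1 ranged from -0.21 to -0.13, HMOX1 from -0.22 to -0.09, SRXN1 from -0.13 to -0.05 and NFE2L2 from 0.01 to 0.11. Signal over background was not used here, so what it limits for dim probe sets is not known.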
